A study of Mus musculus with 2 samples.

Results

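The barcodes described here are neuronal nuclei of the injured mouse spinal cord that carried Lmx1b RNA with few or none of the usual transmitter transcripts. They were chosen by their counts alone: at least 2 unique molecular identifiers (UMIs, each counted as 1 RNA molecule) of Lmx1b, at most 1 of Slc17a6, fewer than 4 of Ebf2, and at most 1 over the 4 inhibitory genes Gad1, Gad2, Slc6a5 and Slc32a1. The rule found 183 of 16362 barcodes in the injury core library and 75 of 7452 in the distal region library, 258 of 23814 in all. Of these, 34 core and 24 distal members had 1 Slc17a6 UMI, and 26 and 2 had 1 UMI of an inhibitory gene. These are shares of 1.12% (exact binomial 95% interval 0.963 to 1.29%) and 1.01% (0.792 to 1.26%). They are called Lmx1b barcodes below, because the values of Lmx1b, Slc17a6, Ebf2 and the inhibitory genes in them are set by the rule and are no result.

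The nuclei came from iNeuroD1GFP mice labelled male and 8 weeks of age (n = 3), which had a spinal cord injury at postnatal day 60 and received TAM on days 5 to 8 after it, at a daily dose of 100 mg/kg. Single-nucleus libraries (10x Genomics 3′ chemistry) were made 10 days after injury, 1 from the injury core and 1 from the distal region, which the extraction protocol calls the peri-injury region. Both regions share the genotype, the injury and the TAM, and no uninjured or untreated cord is compared here. The sources used here do not state what drives the transgene or whether the 3 mice were pooled. With 1 library per region there is no replicate check: nuclei are not replicates, no test was made, and every interval below covers counting error only.

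Lmx1b encodes a LIM-homeodomain transcription factor that spinal neurons of the dorsal excitatory lineage use, together with Tlx3 and Prrxl1 (also known as DRG11), to form the circuits of pain, itch and touch. Pax2 encodes a paired-domain factor of the inhibitory lineage of the same dorsal horn, whose neurons release GABA or glycine. Slc17a6 encodes VGLUT2, the vesicular glutamate transporter of most excitatory spinal neurons. Lmx1b is also used outside the dorsal horn, by serotonergic neurons of the hindbrain and by the roof plate.

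The main comparison set the Lmx1b barcodes against the barcodes of the same library with at least 2 Pax2 UMIs, 421 in the core and 110 in the distal library. A second set them against barcodes with at least 2 Slc17a6 UMIs that met the other limits of the rule and had at most 1 Lmx1b UMI, 130 in the core and 45 in the distal library. Of the Lmx1b barcodes, 2 in the core and 1 in the distal library also had at least 2 Pax2 UMIs and were left out of the Pax2 group. The Pax2 group was not chosen by inhibitory genes. Of its barcodes, 240 in the core and 84 in the distal library had a UMI of the 4 inhibitory genes, and 121 and 47 had at least 2. Lmx1b was detected in 46 core and 13 distal Pax2 barcodes. Levels are CPM, the gene's UMIs per 1000000 UMIs summed across the group's barcodes.

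Depth differed between the groups. The Lmx1b barcodes had a median of 2437 UMIs in the core (854 to 10358) and 2716 in the distal library (877 to 33486), against 3260 and 5114 in the Pax2 barcodes. Their summed UMIs were 550713 and 297359, against 1975217 and 968845 for the Pax2 barcodes, and the deepest distal Lmx1b barcode held 11.3% of that library's member UMIs. All 258 carried UMIs of the 4 neuronal genes Rbfox3, Snhg11, Syt1 and Snap25, with a median of 15 in the core and 12 in the distal library.

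The distal library also held RNA of oligodendrocytes, the myelinating glia. Over 6 oligodendrocyte genes, 12 of the 183 core Lmx1b barcodes and 50 of the 75 distal ones had at least 5 UMIs, as had 68.4% of all distal barcodes. Those genes made up 0.0403% of the Lmx1b barcodes' UMIs in the core and 0.601% in the distal library, where 1 barcode had 434 UMIs of them and the median was 6. The distal library, labelled male, held 14779 UMIs of Xist, the RNA of the inactive X chromosome in females, in 4258 barcodes, and the core library 16. Among the distal Lmx1b barcodes 38 had Xist and none of 4 Y-linked genes, 11 had Y-linked genes and no Xist, 14 had both and 12 had neither. In the core Lmx1b barcodes 0 had Xist and 104 had Y-linked genes. Libraries shared 38 barcode sequences, of which 0 were members.

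The name rests on Lmx1b and on the 3 markers Tafa1, Myo5b and Hs3st2, which were chosen with earlier results of these data known. Tafa1, a small secreted protein of the chemokine-like TAFA family, was at 1280.2 CPM in core Lmx1b barcodes and 634 CPM in core Pax2 barcodes, and at 995 CPM in distal Lmx1b barcodes and 300.4 CPM in distal Pax2 barcodes. Myo5b, a class V myosin motor that carries recycling endosomes, was at 151 against 51.6 CPM in the core and at 135 against 22.7 CPM in the distal library. Hs3st2, which adds 3-O-sulfate to heparan sulfate, was at 43.6 against 28.9 CPM in the core and at 33.6 against 19.6 CPM in the distal library, a ratio of 1.51 (0.896 to 2.47) in the core, and only 15 of 183 and 7 of 75 barcodes had a UMI of it. Tafa1 and Myo5b were therefore past 2-fold from the Pax2 barcodes in both libraries and Hs3st2 was not. Over the alternatives run, the log2 ratio of Tafa1 fell as low as 0.83 in the core and 0.73 in the distal library, under 2-fold.

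Markers that place a nucleus in the dorsal excitatory lineage were sparse. Lbx1, a factor of the dorsal horn lineages, was in 0 of 183 core and 0 of 75 distal Lmx1b barcodes. Tlx3, the partner of Lmx1b, was in 2 and 3 of them, and Pou4f1 in 8 and 1. Prrxl1 reached 30.9 CPM in core Lmx1b barcodes and 10.6 CPM in core Pax2 barcodes, and 33.6 and 4.13 CPM in the distal library, from 17 and 10 UMIs in the Lmx1b barcodes. Skor2, a corepressor, was listed here among the inhibitory lineage factors and is no marker of the excitatory lineage in these lists. It reached 32.7 CPM in core Lmx1b barcodes and 8.10 CPM in core Pax2 barcodes, and 40.4 and 11.4 CPM in the distal library. Both had fewer than 20 UMIs in the Lmx1b barcodes and stayed under the minimum of the comparison. Markers of the other Lmx1b populations were also sparse. Of 4 serotonergic genes Tph2, Slc6a4 and Fev were at 0 in every Lmx1b barcode and Ddc had 1 UMI in each library, a summed level of 1.82 CPM in core and 3.36 CPM in distal Lmx1b barcodes, against 4.05 and 11.4 CPM in Pax2 barcodes. Of 3 roof-plate genes Wnt1 and Gdf7 were at 0, as they were in Pax2 barcodes, and the summed level of the list was 9.08 CPM (2.95 to 21.2) in core and 23.5 CPM (9.46 to 48.5) in distal Lmx1b barcodes, in 5 and 6 barcodes, against 20.3 and 17.5 CPM in Pax2 barcodes.

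Few genes separated Lmx1b from Pax2 barcodes in both libraries, and those that did formed a short set on each side. A gene was compared in a library when the group with the higher level had at least 20 UMIs and 20 CPM, and called at a ratio of 2 or more. In the core 46 of 5946 genes were higher (0.774%) and 175 lower (2.94%) in Lmx1b barcodes. In the distal library 120 of 5454 were higher (2.2%) and 597 lower (10.9%). The Pax2 groups had more UMIs, so that more genes could pass the minimum on their side. With the genes of the rule left out, 12 of the 4664 genes compared in both were higher in both (0.257%) and 30 lower in both (0.643%). Counting the rule genes too, 13 of 4671 were higher in both (0.278%), 34 lower in both (0.728%) and 1 called in opposite directions (0.0214%). With the rule genes left out, the 12 are 26.7% of the 45 genes higher in the core and 10.2% of the 118 higher in the distal library. The 30 are 17.5% of the 171 genes lower in the core and 5.06% of the 593 lower in the distal library. Without the barcodes that held at least 5 oligodendrocyte UMIs the counts were 8 and 5, and after thinning every barcode to 1000 UMIs they were 13 and 9.

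**Figure D1:**
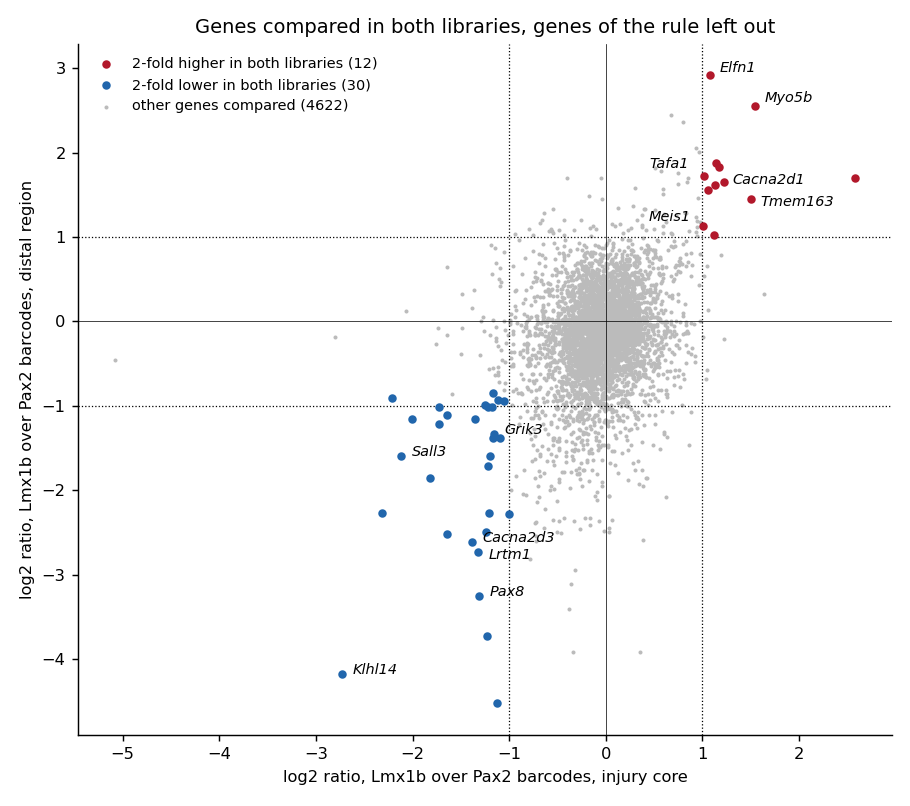
Each point is 1 of the 4664 genes compared in both libraries, with the log2 ratio of Lmx1b over Pax2 barcodes in the injury core (x axis) and in the distal region (y axis); dotted lines mark 2-fold. The 12 genes higher in both sit at the upper right, with Elfn1 and Myo5b highest on the y axis, and the 30 lower in both sit at the lower left, with Klhl14 and Cacna2d3 among them.

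The genes higher in both were Cacna2d1, Tafa1, Myo5b, Meis1, Klhl1, Elfn1, Casz1, Cfap54, Tmem163, Chst9, Plce1 and the noncoding D130009I18Rik. In the last 4 named, a single barcode held more than 20% of the gene's UMIs in the higher group of at least 1 library, so they rest partly on single nuclei. Other neuronal barcodes, those with at least 5 UMIs of the 4 neuronal genes that were in neither group, were added after the values were seen, 13135 in the core and 2999 in the distal library. For all 12 genes their level lay below that of the Lmx1b barcodes and above that of the Pax2 barcodes in both libraries. The genes were chosen for the gap between these 2 groups in the same data, so a level in between is no independent result. Of the 30 lower genes, 29 were lower in Lmx1b than in other neuronal barcodes in both libraries. For 26 of the 30 the other neuronal barcodes were below the Pax2 barcodes in both.

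Cacna2d1 encodes the alpha-2-delta-1 subunit of voltage-gated calcium channels, the binding protein of gabapentin. Its level was 770 CPM (698 to 847) in core Lmx1b barcodes and 331 CPM (306 to 357) in core Pax2 barcodes, a ratio of 2.33 (2.06 to 2.64). In the distal library it was 948 CPM (841 to 1066) and 302 CPM (269 to 339), a ratio of 3.14 (2.65 to 3.71). It was widely detected, with a UMI in 151 of 183 core (82.5%) and 72 of 75 distal Lmx1b barcodes (96.0%), against 52.3% and 48.2% of Pax2 barcodes. As a measure of free RNA, oligodendrocyte barcodes had a Cacna2d1 UMI in 31.6% of 19 in the core and 21.6% of 894 in the distal library, at median depths of 1422 and 1691 UMIs. Core barcodes under 1000 UMIs held Cacna2d1 at 548 CPM and other neuronal barcodes at 531 CPM, both above the core Pax2 barcodes. In the distal library these levels were 402 and 658 CPM. After every barcode was thinned to 1000 UMIs the shares were 50% and 72.6% in Lmx1b barcodes and 25.4% and 12.8% in Pax2 barcodes; shallower barcodes were left out, 11 core and 2 distal Lmx1b and 15 core and 1 distal Pax2 barcodes.

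Tafa1 was 2.02-fold higher (1.84 to 2.21) in the core and 3.31-fold higher (2.81 to 3.91) in the distal library. Its UMIs were unevenly spread: it was detected in 34 of 75 distal Lmx1b barcodes, and the 22 with at least 5 UMIs held 91.6% of them, with up to 43 in 1 barcode. In the core 125 of 183 had a UMI and 50 had at least 5. The share of barcodes with Tafa1 in the distal library was 45.3% for Lmx1b and 54.5% for the deeper Pax2 barcodes, and 34.2% and 27.5% after thinning. In the core, oligodendrocyte barcodes had Tafa1 in 10 of 19, against a share of 68.3% in core Lmx1b barcodes. Free RNA can enter the summed level as well: core barcodes under 1000 UMIs held Tafa1 at 825 CPM and other neuronal barcodes at 903 CPM.

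The other higher genes were at lower levels. Meis1, a homeobox factor of the TALE class, was at 227 CPM in Lmx1b and 113 CPM in Pax2 barcodes of the core and at 359.8 and 165 CPM in the distal library. Klhl1, an actin-binding kelch protein, was at 196 and 94.7 CPM in the core and 155 and 52.6 CPM in the distal library. Elfn1, a postsynaptic protein that binds presynaptic metabotropic glutamate receptors, was at 79.9 and 38.0 CPM in the core and 135 and 17.5 CPM in the distal library, ratios of 2.10 (1.42 to 3.09) and 7.67 (4.25 to 14.4). The zinc-finger factor Casz1 was at 99.9 and 44.6 CPM in the core and 77.3 and 21.7 CPM in the distal library, where its log2 ratio was -0.11 among members with at least 3 Lmx1b UMIs. Cfap54, a gene of motile cilia, was at 59.9 and 27.3 CPM in the core and 87.4 and 23.7 CPM in the distal library. Tmem163, a zinc transporter, was at 321 and 113 CPM in the core and 293 and 107 CPM in the distal library, where 1 nucleus held 21.8% of its UMIs.

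**Figure D2:**
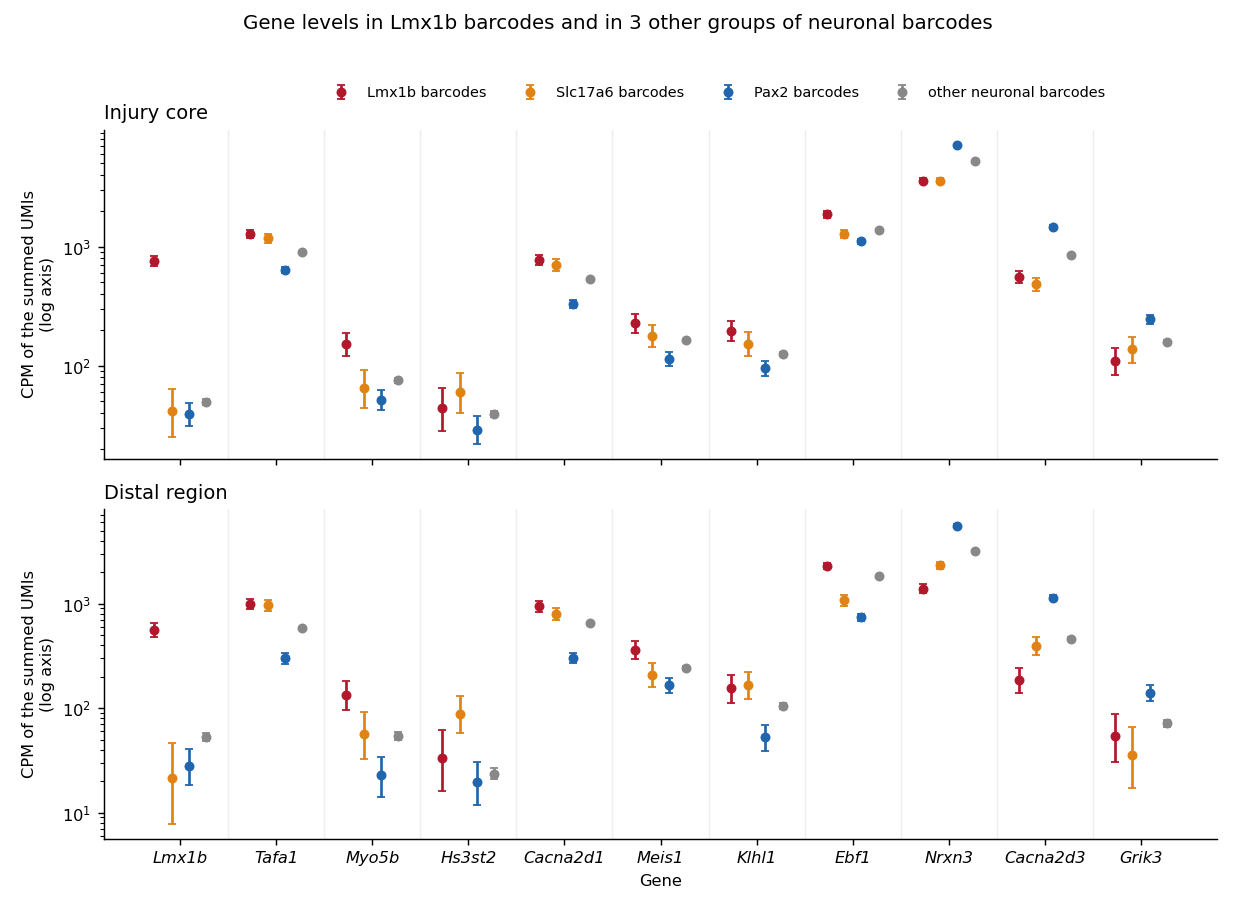
Level of 11 genes (x axis) as CPM of summed UMIs on a log axis, for Lmx1b, Slc17a6, Pax2 and other neuronal barcodes in the injury core (top) and the distal region (bottom); bars are exact Poisson 95% intervals. Lmx1b barcodes are above Pax2 barcodes in both panels for Tafa1, Myo5b, Cacna2d1, Meis1, Klhl1 and Ebf1 and below them for Nrxn3, Cacna2d3 and Grik3, while the intervals of Hs3st2 overlap.

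The sister subunit went the other way. Cacna2d3 encodes alpha-2-delta-3, and its level was 556 CPM (495 to 622) in core Lmx1b barcodes and 1453 CPM (1400.3 to 1507) in core Pax2 barcodes, 2.62-fold lower (2.32 to 2.95). In the distal library it was 185 CPM (139 to 241) and 1144 CPM (1077 to 1213), 6.18-fold lower (4.72 to 8.26). Counted per nucleus, Cacna2d1 had more UMIs than Cacna2d3 in 98 of 183 core Lmx1b barcodes (53.6%, 46.0 to 60.9%) and in 64 of 75 distal ones (85.3%, 75.3 to 92.4%). In Pax2 barcodes this was so in 52 of 421 (12.4%, 9.36 to 15.9%) and 17 of 110 (15.5%, 9.27 to 23.6%), and Cacna2d3 had more UMIs in 331 and 81. Slc17a6 barcodes were on the side of the Lmx1b barcodes, with more Cacna2d1 in 70 of 130 and 33 of 45.

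**Figure D3:**
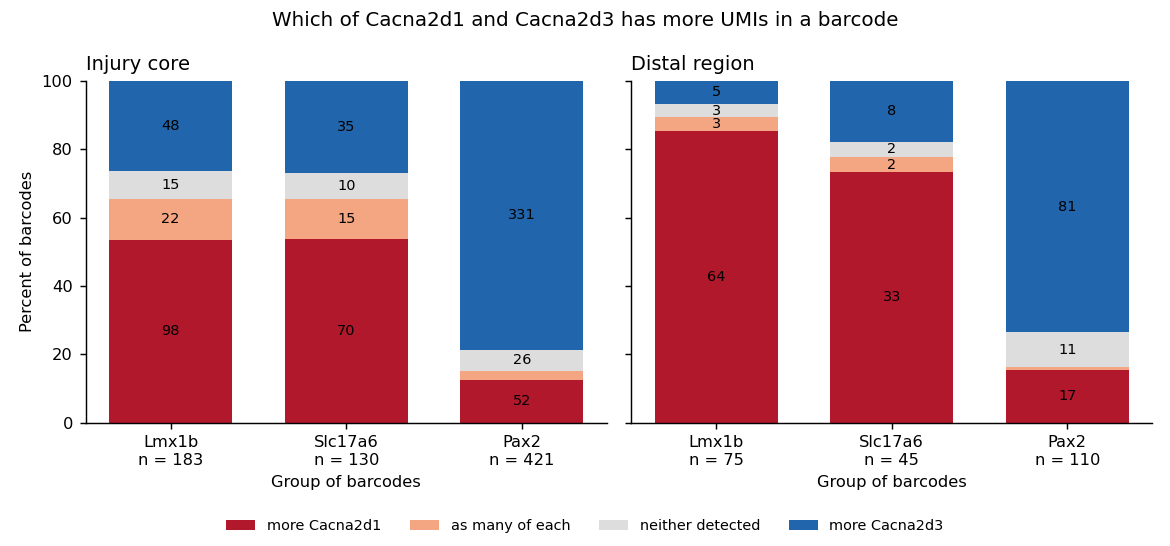
Percent of barcodes (y axis) in which Cacna2d1 or Cacna2d3 had more UMIs, both had as many, or neither was detected, for Lmx1b, Slc17a6 and Pax2 barcodes (x axis) in the injury core (left) and distal region (right); numbers in the bars are barcodes. More Cacna2d1 was the largest class in Lmx1b barcodes (98 of 183 and 64 of 75) and more Cacna2d3 in Pax2 barcodes (331 of 421 and 81 of 110).

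The promoters of this pair are shown because the pair moved in opposite directions, and that of Tmem163 because it holds the letters TAATTA, a core to which LIM-homeodomain proteins bind. The windows run from 250 bases before to 50 bases after the gene start, from RefSeq on GRCm38.p6, and capitals mark the motif. Cacna2d1 lies at chr5:15934441-15934740 (+ strand), Cacna2d3 at chr14:29721815-29722114 (− strand) and Tmem163 at chr1:127677972-127678271 (− strand).
Cacna2d1: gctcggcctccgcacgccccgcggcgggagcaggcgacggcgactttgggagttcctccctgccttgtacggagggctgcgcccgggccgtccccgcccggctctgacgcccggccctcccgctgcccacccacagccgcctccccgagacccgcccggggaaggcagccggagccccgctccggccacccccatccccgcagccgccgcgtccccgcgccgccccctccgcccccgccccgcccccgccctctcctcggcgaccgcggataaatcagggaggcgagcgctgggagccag
Cacna2d3: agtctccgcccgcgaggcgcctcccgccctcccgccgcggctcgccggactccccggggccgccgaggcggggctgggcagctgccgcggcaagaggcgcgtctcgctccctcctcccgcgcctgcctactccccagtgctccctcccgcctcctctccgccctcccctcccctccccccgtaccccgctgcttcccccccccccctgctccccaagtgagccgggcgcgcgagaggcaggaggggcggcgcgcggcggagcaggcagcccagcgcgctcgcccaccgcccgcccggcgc
Tmem163: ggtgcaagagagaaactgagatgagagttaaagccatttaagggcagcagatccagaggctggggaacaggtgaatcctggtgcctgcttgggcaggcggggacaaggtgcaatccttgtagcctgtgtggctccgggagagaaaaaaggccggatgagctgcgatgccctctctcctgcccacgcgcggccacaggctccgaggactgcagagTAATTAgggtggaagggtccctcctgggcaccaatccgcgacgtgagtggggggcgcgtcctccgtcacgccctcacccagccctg
TAATTA reads the same on both strands. It was in 1 place of the Tmem163 window, at bases 215 to 220, and in neither Cacna2d window, which are 80.0% and 81.3% G and C with 42 and 41 CpG. Of the 12 higher genes, 9 had a window in the table, and 2 of their 10 windows held the motif. Of the 30 lower genes, 19 had one, and 1 of their 22 windows held it. Over all 32851 windows the share was 5.29%. A match is a description of letters and no binding site.

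The genes lower in both libraries included 2 of the 9 inhibitory lineage factors compared in both, Pax8 and Sall3. Of the other factors Meis1 was higher in both and 6 were called neither way. Pax8, a paired-box factor related to Pax2, was at 19.97 CPM in core Lmx1b and 51.6 CPM in core Pax2 barcodes and at 3.36 and 47.5 CPM in the distal library, 2.59-fold (1.39 to 5.34) and 14.1-fold lower, the second from 1 UMI with an interval of 2.41 to 569.6. Sall3, a zinc-finger factor, was at 5.45 and 27.3 CPM in the core and 10.1 and 35.1 CPM in the distal library, 5.02-fold (1.63 to 25.1) and 3.48-fold (1.09 to 17.7) lower. These low levels of Sall3 rest on 3 UMIs in the Lmx1b barcodes of each library. Other neuronal barcodes had Sall3 at 22.3 CPM in the core and 17.6 CPM in the distal library. Klhl14, a kelch protein, had 2 and 0 UMIs in Lmx1b barcodes, against 29.9 CPM in Pax2 barcodes of both libraries.

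Others of the 30 act at the synapse or at the cell surface. Grik3, a kainate receptor subunit, was at 109 CPM in core Lmx1b and 246 CPM in core Pax2 barcodes and at 53.8 and 139 CPM in the distal library. Lamp5, a membrane protein of GABAergic vesicles, was at 18.2 and 44.0 CPM in the core and 10.1 and 38.2 CPM in the distal library. Slc30a3, the zinc transporter of synaptic vesicles, was at 5.45 and 20.8 CPM in the core and 10.1 and 26.8 CPM in the distal library, where its log2 ratio was 0.60 without oligodendrocyte-rich barcodes. Lrtm1 (16.3 and 43.0 CPM in the core), the oxidase Nox4 (9.08 and 23.3 CPM) and the cadherin Cdh3 (14.5 and 35.9 CPM) were also among them, as were Gm9934, B130024G19Rik and Gm13944. The promoter window of Lrtm1 (chr14:29017958-29018257, + strand) lies within the Cacna2d3 gene, which is on the − strand. Nrxn3, a presynaptic adhesion protein at a high level in all groups, was at 3594 and 7086 CPM in the core and 1396 and 5592 CPM in the distal library, so it was past 2-fold in the distal library alone.

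Counted over gene lists, the differences from Pax2 barcodes stayed few. Of 38 dorsal excitatory lineage factors in the feature table, 19 were compared in both libraries and 0 were called in both. In the distal library alone 3 of 20 were higher and 1 lower, where 2.2% and 10.9% of all genes were, with a list median log2 ratio of -0.07 against -0.16 over all genes. Those higher were Ebf1, an EBF-family factor, at 2294 CPM in Lmx1b and 741 CPM in Pax2 barcodes, Sox5 at 589 and 236 CPM, and the LIM-only protein Lmo3 at 70.6 and 21.7 CPM. In the core the same genes were at 1861 and 1106 CPM (Ebf1), 389 and 273 CPM (Sox5) and 56.3 and 31.4 CPM (Lmo3), under 2-fold.

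The counts that follow stand beside 0.257% of all genes higher and 0.643% lower in both libraries, and each rests on 1 or 2 genes. Of 9 inhibitory lineage factors compared in both libraries, 1 was higher in both (Meis1) and 2 lower in both (Pax8 and Sall3). Of 22 glutamate receptor genes, 1 was lower in both (Grik3). Of 38 potassium, HCN and calcium channel genes, 1 was higher (Cacna2d1) and 1 lower (Cacna2d3). Among 13 GABA-A and glycine receptor genes, 7 voltage-gated sodium channel genes, 28 axon guidance genes and 18 pan-neuronal genes, 0 were called in both libraries. Of 20 cadherins and protocadherins 1 was lower (Cdh3). Of 3 TAFA genes compared, Tafa1 alone was called, and of 4 class V myosins and partners Myo5b alone.

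Neuropeptides, by which excitatory dorsal horn types are often told apart, were too sparse to compare: 0 of 16 reached the minimum in either library. Penk, the enkephalin precursor, was in 8 of 183 core and 6 of 75 distal Lmx1b barcodes (4.37% and 8.00%). Npff was in 6 and 5, Tac2 in 5 and 4, Sst in 4 and 4, Nmu in 3 and 6, Cck in 3 and 2, Tac1 in 2 and 3, Grp in 1 and 0, and Nts in 0 of both. Penk was in 2.24% of distal oligodendrocyte barcodes. Neurod1, whose transgene and endogenous RNA cannot be told apart in these counts, was in 3 of 183 and 1 of 75 Lmx1b barcodes, and in 1.57% of distal oligodendrocyte barcodes.

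Of 15 dorsal horn subtype genes compared in the distal library, 3 were higher and 6 lower in Lmx1b than in Pax2 barcodes, where 2.2% and 10.9% of all genes were, and the list median log2 ratio was -0.20 against -0.16 over all genes. In both libraries 0 of 12 were higher and 1 lower (Cdh3). Those lower in the distal library included Cdh3, Dach1, Elavl4, Kcnip2 and Nos1. Dach1, a transcription cofactor, was at 108 CPM in Lmx1b and 248 CPM in Pax2 barcodes, and Elavl4, a neuronal RNA-binding protein, at 70.6 and 163 CPM. Nos1, the neuronal nitric oxide synthase, was at 3.36 CPM, from 1 UMI, and 27.9 CPM. The 3 higher were Pde11a, Cpne8 and Reln. Pde11a, a phosphodiesterase of cyclic nucleotides, was at 377 CPM in Lmx1b and 69.2 CPM in Pax2 barcodes, 5.45-fold higher (3.99 to 7.49). Cpne8, a calcium-dependent phospholipid-binding copine, was at 279 and 67.1 CPM, and Reln, the secreted protein reelin, at 178 and 50.6 CPM. In the core the levels were 182 and 114 CPM for Pde11a, 147 and 77.5 CPM for Cpne8 and 120 and 84.5 CPM for Reln, higher in Lmx1b barcodes but under 2-fold.

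The distal differences were compared in barcodes with few oligodendrocyte UMIs, 25 Lmx1b and 25 Pax2 barcodes with fewer than 5. There Cacna2d1 was at 1549 CPM (1244 to 1906) in Lmx1b and 80.1 CPM (32.2 to 165) in Pax2 barcodes, and Cacna2d3 at 157 CPM (71.6 to 297) and 2141 CPM (1845 to 2470.4). Tafa1 was at 992 and 149 CPM and Nrxn3 at 2070.5 and 9604 CPM. In the 50 Lmx1b and 85 Pax2 barcodes with at least 5 such UMIs the gaps were narrower, with Cacna2d1 at 805 and 324 CPM, Cacna2d3 at 192 and 1045 CPM and Nrxn3 at 1234 and 5195 CPM. The direction of these genes was the same in both sets of distal barcodes. The genes were named for their gaps in these same barcodes, so this is no independent result.

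**Figure D4:**
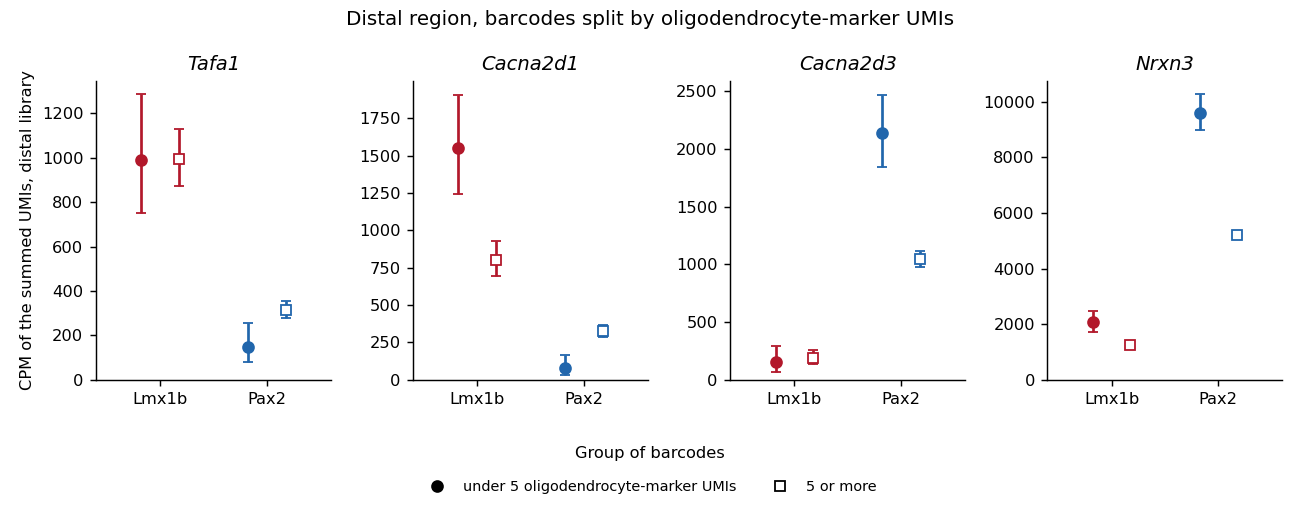
CPM of summed UMIs (y axis, 1 scale per gene) of Tafa1, Cacna2d1, Cacna2d3 and Nrxn3 in distal Lmx1b and Pax2 barcodes (x axis), split at 5 UMIs over 6 oligodendrocyte genes; bars are exact Poisson 95% intervals. Filled points (25 and 25 barcodes) lie farther apart than open squares (50 and 85 barcodes), as for Cacna2d1 with 1549 and 80.1 CPM against 805 and 324 CPM.

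The mixed Xist content of the distal library was handled the same way. In the 38 distal Lmx1b barcodes with Xist alone Tafa1 was at 1700.1 CPM, Cacna2d1 at 1375 CPM, Cacna2d3 at 172 CPM and Ebf1 at 3599 CPM. In the 11 with Y-linked genes alone Tafa1 was at 831 CPM, Cacna2d1 at 1085 CPM, Cacna2d3 at 23.1 CPM, from 1 UMI, and Ebf1 at 1754 CPM. The Pax2 barcodes with Xist alone (37) had Cacna2d1 at 125 CPM and Cacna2d3 at 1508 CPM, and those with Y-linked genes alone (24) had them at 120 and 1670 CPM. The Cacna2d pair had the same direction in both. The pair was chosen for its gap in these same distal barcodes, so this is no independent result.

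Against Slc17a6 barcodes the Lmx1b barcodes were compared over fewer genes. In the core 94 of 4754 genes were higher (1.98%) and 58 lower (1.22%), and in the distal library 280 of 3357 were higher (8.34%) and 234 lower (6.97%). In both libraries, without the rule genes, 8 of 3155 were higher (0.254%) and 1 lower (0.0317%); with them the counts were 9 of 3158 (0.285%) and 2 (0.0633%), and 4 were called in opposite directions (0.127%). Leaving out the deepest distal member made it 5 and 1, and leaving out barcodes with at least 5 oligodendrocyte UMIs made it 0 and 0. Myo5b was among the 8, at 151 CPM in Lmx1b and 64.1 CPM in Slc17a6 barcodes of the core and 135 and 56.9 CPM in the distal library. Cacna1h, the T-type calcium channel subunit Cav3.2, was at 69.0 and 24.8 CPM in the core and 80.7 and 21.3 CPM in the distal library, ratios of 2.78 (1.42 to 5.84) and 3.78 (1.51 to 11.3). Bmp2k, a kinase, was at 50.8 and 16.5 CPM in the core and 114 and 56.9 CPM in the distal library, where oligodendrocyte barcodes had 188 CPM of it and its log2 ratio was -1.29 without barcodes rich in their UMIs. The gene lower in both was Col25a1, a transmembrane collagen, at 98.1 and 209 CPM in the core and 40.4 and 103 CPM in the distal library, where its log2 ratio was 0.0066 after thinning.

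Tafa1 and Cacna2d1, which set the Lmx1b barcodes apart from Pax2 barcodes, were under 2-fold from the Slc17a6 barcodes. Tafa1 was at 1280.2 and 1175 CPM in the core, a ratio of 1.09 (0.974 to 1.22), and at 995 and 963 CPM in the distal library, a ratio of 1.03 (0.873 to 1.22). Over the alternatives run, the distal log2 ratio of Tafa1 ranged from -0.95, with at least 3 Lmx1b UMIs, to 0.57, without the deepest 5% of barcodes. Cacna2d1 had ratios of 1.10 (0.95 to 1.27) and 1.19 (0.996 to 1.43). Hs3st2 was lower in Lmx1b than in Slc17a6 barcodes, 33.6 and 88.9 CPM in the distal library and 43.6 and 60.0 CPM in the core, and the distal log2 ratio was 1.52 without oligodendrocyte-rich barcodes. Of the 4 markers, therefore, Lmx1b itself and Myo5b were at least 2-fold higher than in both comparison groups in both libraries, and Lmx1b was chosen to be. Myo5b had a UMI in only 39 of 183 core and 16 of 75 distal members. In the distal library 3 members held 45% of its UMIs and 1 member held 20%. In the 14 distal members with at least 3 Lmx1b UMIs Myo5b was not higher, with a log2 ratio of -0.18 over Pax2 and -1.52 over Slc17a6 barcodes.

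Core and distal Lmx1b barcodes differed in many genes. Of 4383 genes compared, 548 were at least 2-fold higher in the core (12.5%) and 491 lower (11.2%). Without the rule genes these were 547 and 491, relative to the median of all genes 408 and 591, and with TMM scaling 779 and 410. Of the 547, 544 had at most 20% of the higher group's UMIs in a single barcode, but of the 491 only 220 had. The rest of the 491 thus depend partly on single distal nuclei. Without the deepest distal member 509 genes were higher and 381 lower. Without barcodes that held at least 5 oligodendrocyte UMIs 806 were higher and 28 lower. In Pax2 barcodes the shares were 2.3% and 9.09% of 7334 genes and in Slc17a6 barcodes 4.49% and 4.93% of 3918. The region, the level of the cord and the library cannot be told apart here, and the median log2 ratio over all genes was 0.16 in Lmx1b and -0.04 in Pax2 barcodes.

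Several neuronal genes were higher in the core. Of 18 pan-neuronal genes 6 were higher in core Lmx1b barcodes and 0 lower, with a list median log2 ratio of 0.68 against 0.16 over all genes, and in Pax2 barcodes the median was 0.28 with 0 of 19 called. Meg3, a long noncoding RNA of neurons, was at 16066 CPM in core and 7160 CPM in distal Lmx1b barcodes, and Rbfox3, the splicing factor NeuN, at 685 and 316 CPM. Syt2, the fast calcium sensor of synaptic vesicles, was at 238 and 13.5 CPM, 17.7-fold higher (6.74 to 65.9) from 4 distal UMIs. Grm4, a presynaptic metabotropic glutamate receptor, was at 54.5 and 3.36 CPM, and Pgr, the progesterone receptor, at 63.6 and 6.73 CPM. Of 22 glutamate receptor genes 4 were higher in the core (Gria3, Grik3, Grm4 and Grm8) and 1 lower (Grm3), and of 38 channel genes 7 were higher and 0 lower. Over all genes 12.5% were higher and 11.2% lower, so that the receptor and channel counts lie near that share on the higher side.

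Oligodendrocyte genes were among those higher in the distal library. Mbp, the myelin basic protein, was at 174 CPM in core and 1665 CPM in distal Lmx1b barcodes. Cdh19, a cadherin of myelinating glia, was at 3.63 and 279 CPM, and Car2, a carbonic anhydrase abundant in oligodendrocytes, at 1.82 and 148 CPM. Pax2 barcodes carried Mbp at 208 and 1081 CPM. All 7 oligodendrocyte markers were detected in distal Lmx1b barcodes, at a summed level of 525 CPM in the core and 7338 CPM in the distal library, and their part in the core to distal differences was not tested. Xist was at 0 in core and 784 CPM in distal Lmx1b barcodes, and its antisense partner Tsix at 0 and 225 CPM.

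Hox genes, which mark the level along the cord, were also unequal. Of 8 compared in Lmx1b barcodes 4 were higher in the core and 0 lower (Hoxb5, Hoxc5, Hoxc8 and Hoxd3), with a list median log2 ratio of 0.81. Of 14 in Pax2 barcodes 8 were higher and 0 lower, with a median of 1.11. Over all genes 12.5% were higher and 11.2% lower in Lmx1b barcodes, with a median of 0.16. In Pax2 barcodes 2.3% of all genes were higher and 9.09% lower, with a median of -0.04. Hoxc8 was at 162 CPM in core and 80.7 CPM in distal Lmx1b barcodes, and Hoxd3 at 99.9 and 37.0 CPM. Thus the Lmx1b barcodes of the 2 libraries were not matched for their Hox levels.

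**Figure D5:**
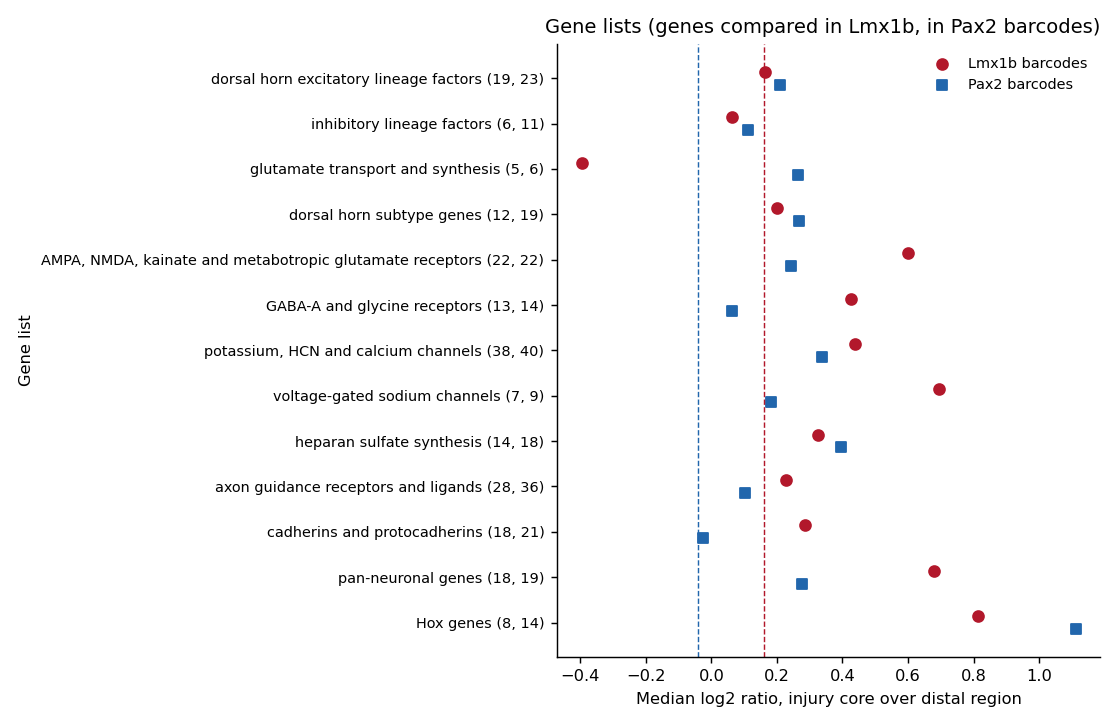
Median log2 ratio of the injury core over the distal region (x axis) for 13 gene lists (y axis, with the number of genes compared), in Lmx1b barcodes (circles) and Pax2 barcodes (squares); dashed lines are the medians over all genes, 0.16 and -0.04. Hox genes have the highest medians (0.81 and 1.11), and pan-neuronal genes are at 0.68 in Lmx1b and 0.28 in Pax2 barcodes.

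The threshold on Lmx1b cut through a continuous range. Exactly 2 Lmx1b UMIs were found in 143 of the 183 core and 61 of the 75 distal members, and the highest counts were 7 and 4. In the core, members with exactly 2 had Tafa1 at 1092 CPM, Cacna2d1 at 781 CPM and Cacna2d3 at 598 CPM, and the 40 members with at least 3 had 1771, 741 and 446 CPM. The 1036 core barcodes just outside, with 1 Lmx1b UMI, had Tafa1 at 1384 CPM, Cacna2d1 at 744 CPM and Cacna2d3 at 603 CPM. The distal library differed in order: the 61 members with exactly 2 had Tafa1 at 1159 CPM, Cacna2d1 at 1048 CPM and Cacna2d3 at 192 CPM, and the 14 with at least 3 had 492, 643 and 164 CPM. The 322 distal barcodes with 1 Lmx1b UMI had Tafa1 at 858 CPM, Cacna2d1 at 753 CPM and Cacna2d3 at 309 CPM. Of the barcodes with at least 2 Lmx1b UMIs, 84 in the core and 86 in the distal library were left out by the other limits, most often by Ebf2, which 52 and 69 of them had at 4 or more. Those outside the inhibitory limit alone, 19 core and 6 distal barcodes, had Cacna2d1 at 373 and 516 CPM and Cacna2d3 at 1351 and 606 CPM. Outside the Ebf2 limit alone Cacna2d1 was at 1121 and 941 CPM and Cacna2d3 at 637 and 207 CPM. Outside the Slc17a6 limit alone they were at 781 and 715 CPM and at 238 and 268 CPM. Of these sets, Cacna2d3 was above Cacna2d1 only outside the inhibitory limit.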

How the data were processed

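Single-nucleus RNA was measured in 2 libraries, injury core and distal region. The matrices the authors deposited hold unnormalised UMI counts and were written by Cell Ranger 7.1.0, per the file headers. The submitters' processing notes also name Seurat, GRCh38 and mm10, with the use of each not given in the sources used here. No filter on barcodes and no doublet caller was applied here, so doublets were left in. The feature table holds 32285 genes and 0 GFP or Cre features. The identifiers of 32158 (99.6%) matched GENCODE M21 on GRCm38.

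The members, the markers and the gene lists were chosen with earlier results of these data known. Counts were summed per group and library and divided by the group's total (Python 3.11.15, numpy 2.4.6, scipy 1.17.1, pandas 2.3.3). Sums carry exact Poisson 95% intervals, shares exact Clopper-Pearson 95% intervals and ratios exact conditional 95% intervals, all for counting error only. Log2 ratios were taken after adding 0.5 UMIs to each sum, so a few called genes plot inside 2-fold. A level of 0 was given a limit of 3 counts. Named genes were the 12 per direction with the largest smaller-of-the-libraries ratio (8 for core over distal), with at most 20% of the higher group's UMIs in 1 barcode. Named outside this rule after their values were seen were Tmem163, Nrxn3, Chst9, Plce1, D130009I18Rik, Col25a1 and the genes called in the distal library alone. Oligodendrocyte barcodes had at least 10 UMIs over 6 oligodendrocyte genes and at most 1 over the 4 neuronal genes. Thinning drew 1000 UMIs per barcode with seed 7. The scripts were tested on simulated counts. Alternatives changed the thresholds of the rule, the comparison group, the gene minimum, the depth, the weighting of barcodes and the barcodes kept.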

Additional observations from a re-analysis of the deposited data

Results flagged for a closer look

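A single gene differed by 2-fold or more in opposite directions in the 2 libraries against Pax2 barcodes, of 4671 compared (0.0214%): 2610008E11Rik, with log2 ratios of -0.94 in the core and 1.04 in the distal library. Against Slc17a6 barcodes 4 genes were (0.127%). Ptpro, a receptor tyrosine phosphatase, was at -1.26 in the core and 1.16 in the distal library. Dync1li1, a dynein light intermediate chain, was at 1.33 and -1.60. B3galt5, a galactosyltransferase, was at -1.11 and 1.0. Neat1, the long noncoding RNA of paraspeckles, was at -1.17 and 1.01. None of these differences between the libraries was tested.

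Xist, outside the main measurement, was detected in 52 of the 75 distal Lmx1b barcodes and in 0 of the 183 core ones, in libraries that are both labelled male.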

How the results depend on the processing

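No paired analysis was possible because each region has 1 library, and no replicate could be left out for the same reason. Counts of genes past 2-fold in both libraries, higher and lower, were 12 and 30 against Pax2 barcodes and 8 and 1 against Slc17a6 barcodes, and core over distal counts without rule genes were 547 and 491. With at least 3 Lmx1b UMIs they were 4 and 150 (Pax2), 0 and 14 (Slc17a6), and 335 and 165. With 0 Slc17a6 and inhibitory UMIs they were 53 lower (Pax2) and 5 and 9 (Slc17a6). After thinning they were 9 lower (Pax2), 1 and 0 (Slc17a6), and 220 and 70. With barcodes weighted equally they were 30 and 70 (Pax2) and 4 and 5 (Slc17a6). Without barcodes holding at least 5 oligodendrocyte UMIs they were 5 lower (Pax2), 0 and 0 (Slc17a6), and 28 lower in the core. Without the deepest 5% of barcodes they were 21 and 55 (Pax2), 2 and 2 (Slc17a6), and 222 lower. A minimum of 50 UMIs and 50 CPM gave 4 and 2, 0 and 0, and 228 and 183; one of 5 UMIs gave 66 and 295, 112 and 73, and 1502 and 1653. At least 3 Pax2 UMIs, or at least 2 inhibitory UMIs in the Pax2 group, each left 16 lower. Added after seeing the data, a minimum of 100 CPM gave 6 and 2 (Pax2), 1 higher (Slc17a6), and 206 and 317, and leaving out the deepest distal member left 5 higher (Slc17a6).

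Members per library moved to 0.244% (core) and 0.188% (distal) with at least 3 Lmx1b UMIs, to 0.776% and 0.684% with 0 Slc17a6 and inhibitory UMIs, and to 1.54% in the core among barcodes with at least 1000 UMIs. With at least 3 Lmx1b UMIs the distal log2 ratios over Pax2 turned to 0.17 for B130024G19Rik, -0.11 for Casz1 and -0.18 for Myo5b, and that of Myo5b over Slc17a6 to -1.52. Without oligodendrocyte-rich barcodes they turned to 0.60 for Slc30a3 over Pax2, and to -1.29 for Bmp2k and 1.52 for Hs3st2 over Slc17a6. After thinning, Col25a1 over Slc17a6 in the distal library was at 0.0066, and the distal share with Tafa1 was 6.72 percentage points higher in Lmx1b than in Pax2 barcodes. The cause of these moves was not tested. Over the alternatives run, the log2 ratio over Pax2 stayed between 1.10 and 4.18 for distal Cacna2d1, 1.16 and 1.62 for core Cacna2d1, -3.70 and -2.44 for distal Cacna2d3, and -1.81 and -1.32 for core Cacna2d3. For Tafa1 it ranged from 0.83 to 1.48 in the core and from 0.73 to 2.69 in the distal library. For Myo5b it ranged from 1.44 to 1.95 in the core and from -0.18 to 3.21 in the distal library. Depth is a limit: with 75 distal members, a gene higher in them could be compared only from 20 UMIs. A gene lower in them was compared when the other group reached the minimum, even with few or no UMIs in the members.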
